A study of Arabidopsis thaliana with 4 samples.

Results

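This set holds 92 probe sets, of 8297 on the array, whose TSA difference pointed in opposite directions between arrays numbered replicate 1 and arrays numbered replicate 2. Each was at least 4-fold lower on TSA replicate 1 than on untreated replicate 1, and at least 4-fold higher on TSA replicate 2 than on untreated replicate 2, on the scale of log2(signal + 30.8). They were drawn from the 4948 probe sets that were no array controls and had a mean signal of at least 282.45 over all arrays. The values of all 4 arrays chose the members, so their levels and differences are descriptions, and no test is given for them. The name "opposite response" fits the differences as measured, but 1 TSA array against 1 untreated array of the same number cannot show a response to TSA, and the labels do not pair arrays by number.

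The samples were seeds of Arabidopsis thaliana ecotype Columbia, imbibed for 3 days under 16 h of light on Murashige and Skoog agar. The 2 TSA arrays came from seeds on medium with trichostatin A (TSA), given as 10 micromolar in one label and 10 mM in another, sown without stratification. The 2 untreated arrays came from seeds on the same medium without TSA, and their labels do not mention stratification. The replicates of each group are stated to be separate treatments, and no label says that equal numbers share a day or a batch.

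Trichostatin A blocks histone deacetylases, the enzymes that take acetyl groups off histone tails, and acetylated histones generally accompany active genes. A germinating seed turns from a dry embryo living on stored oil and protein into a green seedling. During that change the nuclear genes for the photosystems, the light-harvesting antenna and the enzymes of carbon fixation are switched on in the light. The proteins they encode are made in the cytosol and imported into the chloroplast.

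The annotation at hand names 1 gene for 31 of the 92 probe sets, which stand for 27 genes, and the other 61 are not listed in it. The clearest group among the named ones was photosynthesis, with 12 probe sets in 8 genes. All 12 lay at least 2-fold below both untreated arrays on TSA replicate 1 and at least 2-fold above both on TSA replicate 2. Of all tested probe sets, 11.2% and 10.2% did so. For the 10 photosynthesis probe sets whose untreated arrays were within 2-fold of each other, the rule fixes both departures. Of the list of 35 photosynthesis genes used here, 4 had a probe set annotated to 1 gene (RCA, LHCB4.1, PSAN and PSAE-1). All 6 of these probe sets were members, against 1.86% of all tested probe sets. Other genes of the list may be read by probe sets that the annotation does not list. For the 6 probe sets the median log2 difference was -3.81 in replicate 1 and 2.48 in replicate 2. Over all 4948 tested it was 0.09 and -0.07. As the 6 are members, the rule fixes the sign and the least size of their differences. The members and this list were chosen with results of these data known, so the count and the medians are descriptions.

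Photosystem I passes electrons to ferredoxin, and PSAN and PSAE-1 encode 2 of its small subunits. PSAN had signals of 140.5 and 23062 with TSA (replicates 1 and 2), against 6148 and 2455 without. The untreated arrays lie between the TSA arrays, and the TSA values span the whole range. PSAE-1, whose protein sits on the stromal side of photosystem I, was read by 3 probe sets, all of them members. The brightest, 18090_s_at, read 1257 and 83239 with TSA, against 16515 and 14620 without. Its untreated arrays nearly coincided, and each TSA array stood far from them on its own side. The other PSAE-1 probe sets, 18088_i_at and 18089_r_at, had log2 differences of -5.16 and -3.50 in replicate 1 and of 2.74 and 2.14 in replicate 2. These 3 probe sets are annotated to 1 gene and are not independent of each other.

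Photosystem II splits water, and its members were PSBW, a small membrane subunit, and AT1G51400, the photosystem II 5 kD protein. PSBW (16423_at) read 2790 and 84210 with TSA, against 19384 and 15074 without. Its second probe set, 16424_g_at, read 1539 and 52826 with TSA, against 13832 and 9830 without. Both probe sets placed the arrays in the same order. AT1G51400 read 184.9 and 17141 with TSA, against 2338 and 2169 without, so that the untreated arrays were close together and the TSA arrays were not.

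The antenna proteins bind chlorophyll and hand light energy to the photosystems. LHCB4.1, the minor antenna protein CP29 of photosystem II, read 1352 and 105671 with TSA, against 21119 and 19243 without. LHB1B2, a protein of the main light-harvesting complex, read 34.7 and 69505 with TSA, against 7965 and 9151 without (12739_s_at). Its log2 difference of -6.93 in replicate 1 is the largest in size among the 12 photosynthesis probe sets, beside 2.92 in replicate 2. The value of 34.7 lies inside the range of the 8 mouse and yeast controls on that array (29.4 to 309.8), for which a plant sample has no target, so the size of the replicate 1 difference is not exact. The second LHB1B2 probe set, 12738_r_at, was among the dimmest members, at 8.1 and 1029 with TSA, against 141.7 and 233.4 without. On TSA replicate 1 and both untreated arrays it lay below the brightest of these controls (309.8, 165.7 and 465.9). The size of its differences is thus not exact either.

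RCA encodes rubisco activase, which keeps the carbon-fixing enzyme rubisco active, and it read 3706 and 70795 with TSA, against 16026 and 14547 without. It had the highest signal of all 92 probe sets on TSA replicate 1. AT2G26500, a subunit of the cytochrome b6f complex that links the photosystems, read 1222 and 25887 with TSA, against 10760 and 5211 without. Across the 12 probe sets the log2 difference ran from -6.93 to -2.10 in replicate 1 and from 2.0 to 3.22 in replicate 2.

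**Figure D1:**
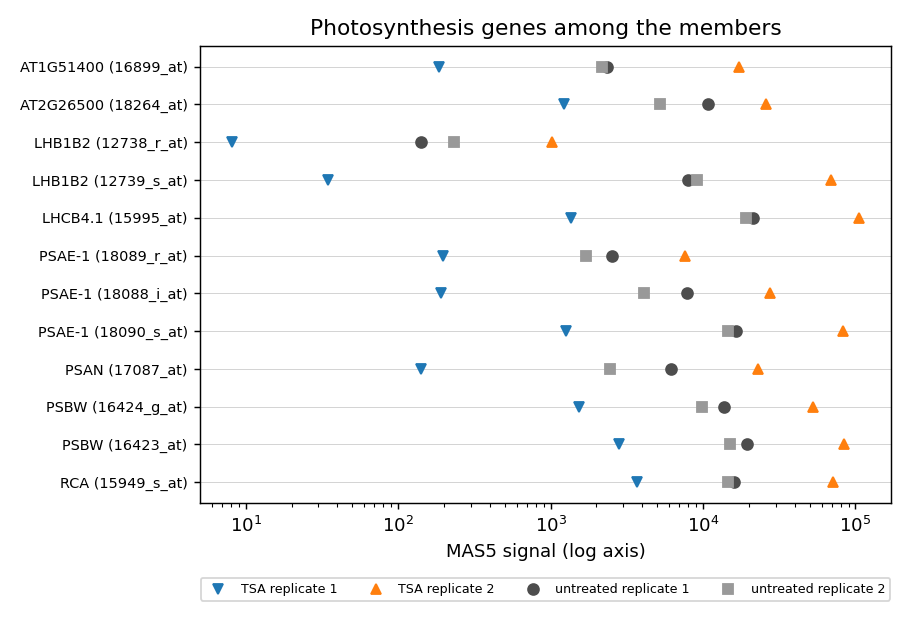
MAS5 signal (log axis) of the 12 member probe sets in 8 photosynthesis genes, 1 row per probe set and 1 point per array. In every row TSA replicate 1 is lowest, TSA replicate 2 is highest and the untreated arrays lie between. The rule fixes this where the untreated arrays are less than 4-fold apart. For LHCB4.1 the values are 1352, 105671, 21119 and 19243.

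Not every gene of the photosystems and antenna behaved this way. Among probe sets whose gene symbol starts with PSA, PSB, LHC or LHB, a selection made after the values were seen, 12 probe sets in 8 genes were tested and 9 in 5 genes were members (1.86% of all tested probe sets were). PSBY, another small subunit of photosystem II, missed the limit in replicate 2, with log2 differences of -2.05 and 1.58. PSB27, an assembly factor of photosystem II, had differences of 0.14 and 1.39, and LHCB4.3, a relative of LHCB4.1, had 0.25 and 0.18. LHCB4.3 read 767.8 and 750.3 with TSA, against 640.9 and 660.3 without, so its 4 arrays were almost level. PRK, the Calvin cycle enzyme phosphoribulokinase, lay just outside the set, with -1.88 and 2.40.

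Some members also had neighbouring probe set numbers, which the rule did not use. The 13 tested probe sets numbered 18078 to 18090 were all members, where 1.86% of all tested probe sets were. The 3 for PSAE-1 are the last of them. The other 10 are not listed in the annotation and are given no gene here. The 13 read between 20.6 and 1830 on TSA replicate 1 and between 7656 and 96023 on TSA replicate 2, against 1419 to 23077 on untreated replicate 1 and 1522 to 23696 on untreated replicate 2. All 13 departed at least 2-fold from both untreated arrays on each TSA array, against 3.15% of all tested probe sets. For the 11 whose untreated arrays were within 2-fold of each other this follows from the rule. In all, 27 of the 92 members stood in 8 runs of neighbouring numbers. Runs were counted among members only. How often other tested probe sets with neighbouring numbers had like values was not tested. Members can share a gene or a sequence, so they are not 92 separate transcripts. Probe sets ending in _s_at, which by the maker's naming can match more than 1 transcript, made up 35.9% of the members, 20.5% of all tested probe sets and 34.1% of 337 abundant ones that stayed within 2-fold over all 4 arrays.

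Beside photosynthesis, 3 genes belonged to the dirigent family, whose members steer the coupling of phenolic building blocks. This family was in no gene list used here, and its share among all tested probe sets was not counted. AT4G11190 read 33.6 and 9108 with TSA, against 5098 and 1342 without. AT4G11210 read 7.9 and 1679 with TSA, against 2877 and 146.6 without. AT4G13580 read 8.2 and 980.9 with TSA, against 632.9 and 63.6 without. Unlike the photosynthesis group, these 3 had untreated arrays far apart, by -4.04 to -1.90 on the log2 scale (untreated replicate 2 minus 1), and on TSA replicate 2 none of them (0 of 3) was 2-fold above both untreated arrays. AT4G11210 was in fact brighter on untreated replicate 1 than on TSA replicate 2. On untreated replicate 2, AT4G11210 and AT4G13580 lay below the brightest of the mouse and yeast controls (465.9).

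AT4G33550 and AT5G46900 encode proteins of the lipid transfer protein family, small secreted proteins that bind lipids. This family was not in a gene list or counted among all tested probe sets either. AT4G33550 headed the ranking by the smaller of its 2 opposite log2 differences, at -5.03 in replicate 1 and 3.81 in replicate 2. It read 69.9 and 21892 with TSA, against 3259 and 1528 without. AT5G46900 read 198.4 and 11614 with TSA, against 1909 and 1035 without. In both genes each TSA array lay more than 2-fold outside the untreated pair, which for AT5G46900 follows from the rule.

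The remaining named genes also fall under no list used here, and those given were taken by rank. ECS1, a cell wall protein first studied in relation to bacterial infection, was second in the ranking. It read 77.6 and 17792 with TSA, against 3769 and 1271 without. AT3G15356, a legume-type lectin, read 237.9 and 9584 with TSA, against 2576 and 925.6 without. For both genes the TSA arrays enclosed the untreated ones. AT2G37130, a secretory peroxidase, read 267.7 and 17668 with TSA, against 2977 and 3118 without. AT2G42690 read 54.9 and 2650 with TSA, against 435.8 and 433.1 without. In these last genes the untreated arrays were nearly equal, so the departure lay with the TSA arrays.

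Among the dimmer named members, WRKY29, a transcription factor of the defence-related WRKY family, read 14.5 and 882.7 with TSA, against 789.5 and 92.9 without. AT1G23130, of the Bet v 1-like protein family, read 13.2 and 889.3 with TSA, against 605.0 and 81.4 without. AT1G30700, a berberine bridge enzyme-like oxidase, read 56.2 and 1100 with TSA, against 611.4 and 51.4 without. In these 3 genes TSA replicate 2 was within 2-fold of untreated replicate 1, and the low arrays were TSA replicate 1 and untreated replicate 2. AT4G25780, related to pathogenesis-related protein 1, read 41.9 and 1032 with TSA, against 415.1 and 108.2 without. The 14 named members outside the photosynthesis, dirigent and lipid transfer groups all read below the brightest mouse or yeast control on TSA replicate 1, and 9 of them did so on untreated replicate 2. Of all tested probe sets, 16.4% and 19.7% did so on these arrays. On TSA replicate 1 this also held for 6 of the 12 photosynthesis probe sets and for all dirigent and lipid transfer ones.

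**Figure D2:**
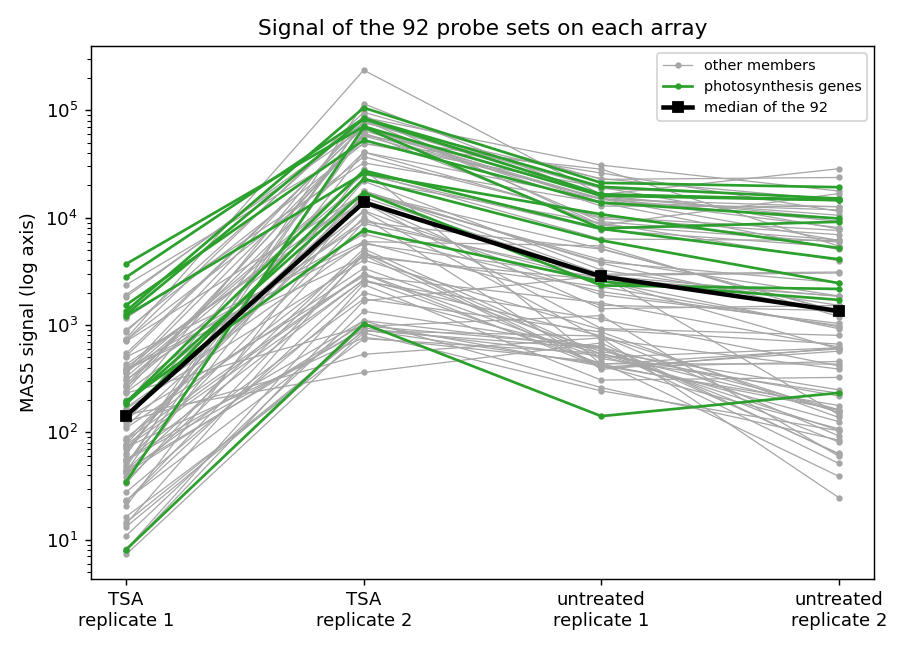
MAS5 signal (log axis) of the 92 probe sets on each of the 4 arrays, with 1 line per probe set, photosynthesis genes in green and the median in black. The medians are 143.0, 13896, 2833 and 1351 from left to right. TSA replicate 1 is below both untreated arrays for 87 of the 92, and for 1691 of all 4948 tested.

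In untreated seeds the members covered a wide range of abundance. Their mean signal on the untreated arrays ran from 173.0 to 24292 with a median of 2265, against a median of 968.3 over all tested probe sets. The 23 dimmest members lay between 173.0 and 441.2 and the 23 brightest between 10536 and 24292. A 4-fold fall needs room above background, so the rule itself favours bright untreated probe sets. The 12 photosynthesis probe sets had a median untreated signal of 8272, and the 14 other named members outside the dirigent and lipid transfer groups had one of 432.2. The 3 members brightest in untreated seeds, 18079_g_at, 13214_at and 15108_s_at, have no gene in the annotation. Of these, 15108_s_at had the highest signal of all members on any array, with 745.7 and 236894 with TSA, against 16416 and 28578 without. The dimmest members in untreated seeds were 14856_at, 13685_at and 12738_r_at, with mean untreated signals down to 173.0.

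The untreated arrays placed the members in much the same order, with a Pearson's r of 0.92 and a Spearman's rho of 0.90 across the 92 probe sets. Over all tested probe sets r was 0.86 and rho 0.83; probe sets of 1 array share its labelling and scaling and are not independent. The untreated arrays were within 2-fold of each other for 49 of the 92 (53.3%), against 72.2% of all tested probe sets. They were 4-fold or more apart for 15 members (16.3%, against 5.09% of all tested). The disagreement ran one way. Untreated replicate 1 was above untreated replicate 2 for 78 members (84.8%, against 44.9% of all tested), and all 43 members over 2-fold apart had the higher signal on untreated replicate 1. The rule asks for a high untreated replicate 1 and a low untreated replicate 2, so it draws in probe sets that differ this way.

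**Figure D3:**
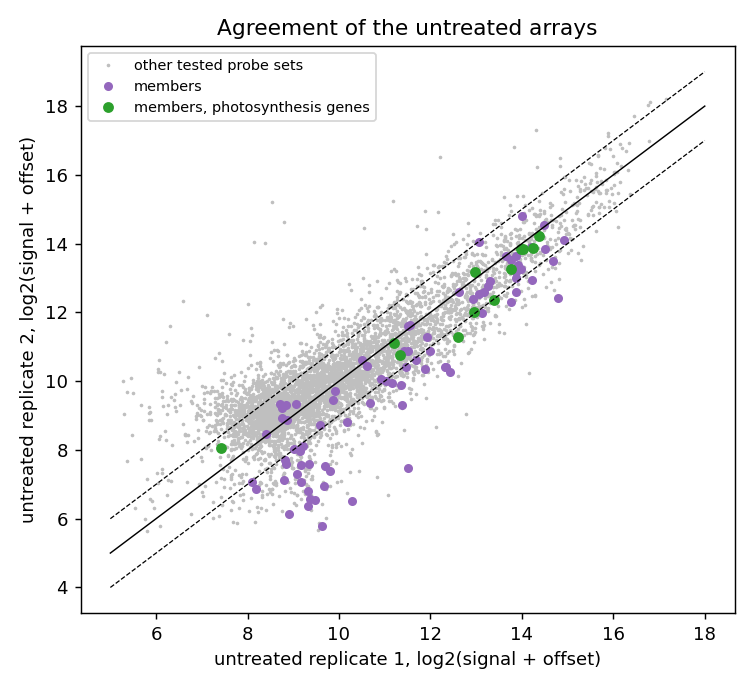
Level on untreated replicate 1 (x axis) and untreated replicate 2 (y axis), both as log2(signal + offset), for all tested probe sets; the solid line marks equality and the dashed lines 2-fold. The members (purple, photosynthesis genes in green) follow the line at high signal and fall below it at low signal; 49 of 92 are inside the dashed lines.

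Among the members, agreement between the untreated arrays went with abundance. These counts were made for members only, so they do not show a trait particular to them. Of the 23 brightest members 19 were within 2-fold, with a median log2 difference of -0.36 (untreated replicate 2 minus 1). Of the 23 dimmest 5 were, with a median of -1.59. Of the 63 members above the brightest mouse or yeast control on both untreated arrays, 43 were within 2-fold, and of the other 29, 6 were. On untreated replicate 2, 29 members lay below that control, and on untreated replicate 1, 1 did. This split thus picks members with a low untreated replicate 2, and their lower agreement partly follows from it. Among the photosynthesis probe sets 10 of 12 were within 2-fold, with a median difference of -0.27.

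Both TSA arrays, and not just 1, departed from the untreated pair for most members. TSA replicate 1 was at least 2-fold below both untreated arrays for 82 of the 92 (89.1%, against 11.2% of all tested), and TSA replicate 2 was at least 2-fold above both for 74 (80.4%, against 10.2%). Both held for 70 members (76.1%, against 3.15% of all tested). For the 49 members whose untreated arrays were within 2-fold this follows from the rule. Among the other 43 it was only partly open. Where their untreated arrays were less than 4-fold apart, the rule still puts both TSA arrays outside the untreated pair, but not by 2-fold. In these 43, TSA replicate 1 departed by 2-fold for 33, TSA replicate 2 for 25 and both for 21. TSA replicate 1 alone departed for 12 members, TSA replicate 2 alone for 4, and neither for 6. In all of these 6 the untreated arrays were over 2-fold apart.

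TSA replicate 1 lay farther from the mean of the untreated arrays than TSA replicate 2 for 65 of the 92, and for 2415 of all 4948 tested. Its median log2 difference from that mean was -2.88, against 2.30 for TSA replicate 2. Within replicate 1 the median log2 difference was -2.76 for the 23 dimmest members and -4.68 for the 23 brightest, and within replicate 2 it was 2.93 for the dimmest and 2.46 for the brightest. The replicate 1 difference of a dim member is bounded by its untreated signal and the offset, with a median untreated replicate 1 signal of 514.8 for the 23 dimmest. On TSA replicate 1, 64 members (69.6%) read below the brightest mouse or yeast control, as did 16.4% of all tested probe sets, and signals there have no exact size. On TSA replicate 2, 1 member did. Set against all tested probe sets of the same array, the median member stood at percentile 5.89 on TSA replicate 1 and 94.3 on TSA replicate 2, beside 75.9 and 60.2 on untreated replicates 1 and 2.

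**Figure D4:**
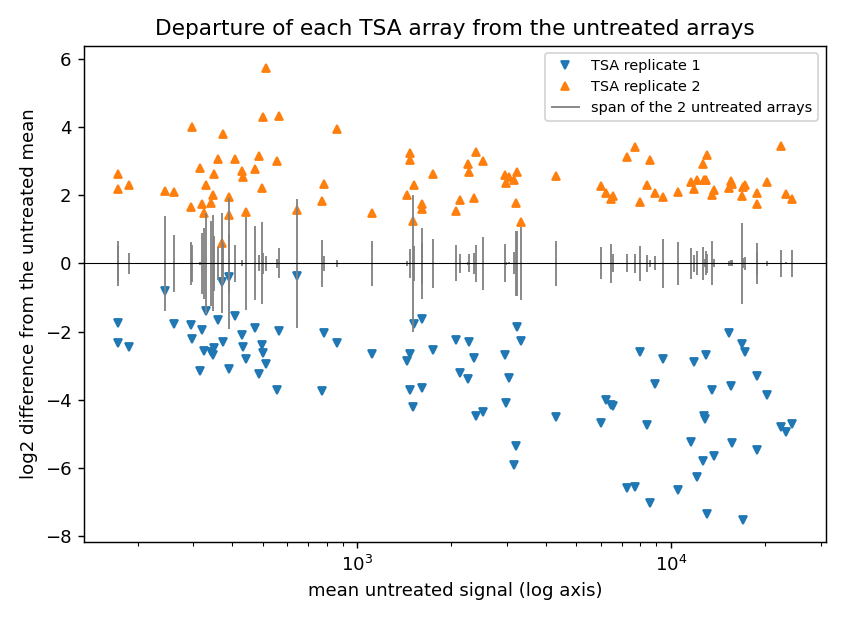
Log2 difference of each TSA array from the mean of the untreated arrays (y axis) against the mean untreated signal (log x axis) for the 92 probe sets; grey bars span the untreated pair. TSA replicate 1 points (median -2.88) reach lower at high signal, TSA replicate 2 points (median 2.30) stay at a like height, and most long grey bars are at low signal.

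The TSA arrays were also set against each other directly. TSA replicate 2 minus TSA replicate 1 had a median of 5.53 on the log2 scale and ran from 1.14 to 10.53. The value of 10.53 was also the highest of all 4948 tested probe sets. Across the members r between the TSA arrays was 0.63, beside 0.92 between the untreated arrays; over all tested probe sets these were 0.56 and 0.86, so the lower agreement of the TSA arrays was not limited to the members.

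The rule used both differences within replicate numbers, so their counts are given only as background. A TSA signal 4-fold or more below untreated in replicate 1 was found for 346 probe sets (6.99%), and one 4-fold or more above untreated in replicate 2 for 289 (5.84%). The members are 26.6% of the first list and 31.8% of the second. The 346 probe sets of the first list had a median log2 difference of 0.77 in replicate 2, and the 289 of the second had a median of -0.41 in replicate 1. The members nearest to the limit were 12052_at (AT3G54880) at -2.0 and 2.07, the dim LHB1B2 probe set at -2.15 and 2.0, and 17485_s_at (AT4G16260, a glucanase-family protein) at -2.01 and 2.62. Just outside were 20479_i_at at -2.92 and 1.99, 15115_f_at at -5.65 and 1.99, and 16044_s_at at -4.75 and 1.97, none of which has a gene in the annotation. The last of these read 860.9 and 95833 with TSA, against 24019 and 24460 without, a pattern like that of the photosynthesis genes.

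**Figure D5:**
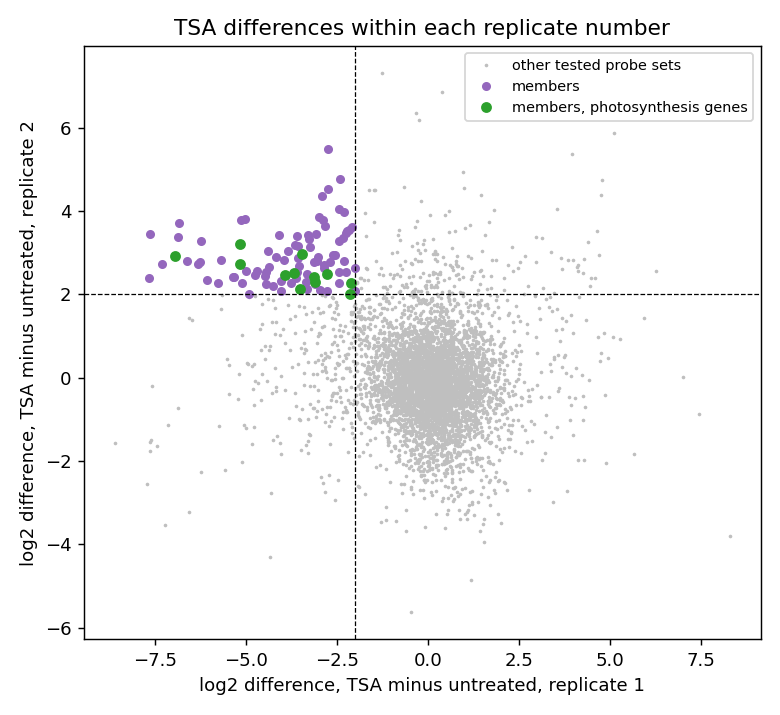
Log2 difference of TSA minus untreated in replicate 1 (x axis) and replicate 2 (y axis) for the 4948 tested probe sets; dashed lines mark the limits at -2 and 2. The 92 members fill the upper left corner by the rule, and the points nearest to the lines show that the set has no gap at its edge.

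Across the whole table, the comparison of TSA with untreated seeds in limma called 0 of 4948 probe sets at an adjusted p of 0.05 (0%), and 84 higher and 50 lower at an unadjusted threshold of 0.05. The opposite differences of a member partly cancel in its mean over the replicates. Compared with the members, the 36 probe sets that were 4-fold or more higher with TSA in each replicate had a median untreated signal of 421.0, and the 14 that were 4-fold or more lower in each had one of 5463. Their untreated arrays were within 2-fold for 24 of 36 and for 12 of 14. The 337 steady probe sets, within 2-fold over all 4 arrays and at least as bright in untreated seeds as the median member, had a median untreated signal of 4963. No test was run between these sets, which were also chosen by their values.

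The array's plant controls also differed between arrays. The 25S ribosomal RNA probe set read 1639 and 25345 with TSA, against 229.1 and 72300 without, so the replicate 2 arrays were the brighter ones in both groups. All members were higher on TSA replicate 2 than on TSA replicate 1, while untreated replicate 1 was above untreated replicate 2 for 78 of 92. The ratio of 3' to 5' signal for GAPDH was 0.646 and 1.84 with TSA, against 1.48 and 1.29 without. It placed all 4 arrays in the same order as the members' medians. The rule that chose the members favours that order in them, and with it untreated replicate 1 above untreated replicate 2. The ubiquitin control did not give that order. Its 3' signals were 89447 and 74854 with TSA, against 52266 and 60381 without. Its 5' signals were 30256 and 34207 with TSA, against 17578 and 29063 without. The part of these differences between arrays in the members' values was not tested. A lower signal from fewer cells with a transcript and from less of it per cell cannot be told apart in RNA from whole seeds.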

How the data were processed

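Total RNA from 4 seed samples, 2 with TSA and 2 untreated, was labelled with biotin and hybridised to 1 array each, per the labels. The deposited values are MAS5 signal intensities, per the submitters' processing notes; its version and target level are unstated there. Their 2% trimmed means were 1502.56 to 1502.7, so nothing was rescaled. MAS5 multiplies an array by 1 factor and cannot remove brightness-dependent differences between them. Precision is limited by the number of arrays.

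The 50 control probe sets and the lowest 40% by mean signal were left out. The offset of 30.8 is the 10th percentile of all signals and understates differences of dim probe sets. Genes came from the platform annotation, updated by gene identifier: 3794 probe sets had 1 gene, 70 several and 4433 none listed. limma 3.58.1 (R 4.3.3) was fitted to all tested probe sets with an intensity trend and Benjamini-Hochberg adjustment, and tested on simulated data.

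Members and gene lists were chosen with earlier results of these data known. The genes named were the first 20 probe sets with 1 gene by the smaller of both differences, members in a list, and the 3 brightest and 3 dimmest in untreated seeds. Those outside this rule (AT2G26500, the neighbours of the limit, PSBY, PSB27, LHCB4.3, PRK and the second PSBW probe set) were chosen after their values were seen. Alternatives in scaling, offset, filter, fold, block and left-out array were run.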

Additional observations from a re-analysis of the deposited data

How the results depend on the processing

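The number of opposite probe sets was 84 to 107 under the other scalings, offsets and the looser filters, against 92. With the lowest 60% left out it was 76. It was 265 at 2-fold and 17 at 8-fold. Chosen after seeing the data, setting each TSA array against the mean of both untreated arrays gave 67, of which 56 were among the 92, and asking for a signal above the highest mouse or yeast control on both untreated arrays gave 63, all among the 92.

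The shares moved as follows, for untreated arrays within 2-fold (53.3%), TSA replicate 1 below both (89.1%) and TSA replicate 2 above both (80.4%). Median centring, which shifted the median of untreated replicate 2 minus 1 over all tested probe sets to -0.34, against 0.10 as deposited, gave 40%, 77.9% and 68.4%. With the lowest 60% left out they were 63.2%, 94.7% and 89.5%, and above the controls they were 68.3%, 96.8% and 90.5%, with a median untreated signal of 6450. TSA replicate 1 was below both for 77.6% with no filter and for 79.0% with the lowest 20% left out. The last filters keep or drop dim probe sets by construction, and otherwise the cause was not tested. Among the named members, 18079_g_at fell short of the limit under quantile normalization (1.82 in replicate 2), and 14856_at (-1.93 in replicate 1) and 12738_r_at (-1.54 and 1.89) did so with double the offset; no named difference changed sign, which their size makes unlikely.

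The limma count was 0 in all fits with 4 arrays, the replicate block included (0 calls, smallest adjusted p 0.597, with limma's range from 0.00332 to 1 over all fits). The labels do not pair the arrays by number. Across tested probe sets the difference between the TSA replicates correlated with that between the untreated ones at r = 0.14. Leaving out 1 array gave 0 to 180 calls, with all 180 (46 higher, 134 lower) in the fit without TSA replicate 2, where the lone TSA array is assumed to vary like the untreated ones.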

Other observations

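The reverse pattern held for 9 of the 4948 tested probe sets, 3 of them with a named gene. The 9 were at least 4-fold higher with TSA in replicate 1 and at least 4-fold lower in replicate 2. AT1G04660, a glycine-rich protein, read 23156 and 131.2 with TSA, against 43.7 and 2234 without. AT1G62500, of the lipid transfer protein family, read 7855 and 323.3 with TSA, against 1130 and 2278 without. AT4G17020, a subunit of the transcription factor complex TFIIH, read 605.1 and 129.8 with TSA, against 119.1 and 876.4 without. The untreated arrays were within 2-fold for 3 of the 9, against 72.2% of all tested probe sets. On TSA replicate 2 all 9 were below the highest mouse or yeast control, as were 19.4% of all tested. The reverse rule asks for a low TSA replicate 2 and a high untreated replicate 2, so it favours both outcomes.

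Of the lists for oil body and late embryogenesis abundant proteins, 1 and 4 probe sets were tested and 0 were members, where 1.86% of all tested probe sets were; so few probe sets show nothing about these genes as a group. M17, a late embryogenesis abundant protein, read 11579 and 2072 with TSA, against 718.4 and 20.4 without, and OLEO3, an oil body protein, read 13502 and 1182 with TSA, against 1137 and 359.2 without. For both the TSA arrays were the 2 highest, and TSA replicate 1, where the photosynthesis members were lowest, was the highest of all. M10, listed with M17, read 647.6 and 779.2 with TSA, against 363.1 and 95 without. COR47, a dehydrin, read 3865 and 16186 with TSA, against 5242 and 1774 without (13225_s_at). ICL, isocitrate lyase of the glyoxylate cycle that turns stored oil into sugar, read 79848 and 113186 with TSA, against 20351 and 162944 without. The 4 tubulin probe sets had median log2 differences of -0.29 in replicate 1 and -0.08 in replicate 2. Genes of the lists for storage proteins, histone deacetylases, aquaporins, hormone genes and cytosolic ribosomal proteins had no probe set with 1 named gene here.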
